A study of Mus musculus with 8 samples.

Results

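The stimulation response of KLF2+ CD4 T cells was compared with that of KLF2- CD4 T cells, gene by gene. The difference in response was the log2 fold change from unstimulated to stimulated KLF2+ cells minus the same fold change in KLF2- cells, so a positive difference is a more upward response in KLF2+ cells. It was computed over all 8 libraries, and 19146 of the 25124 genes in the table had enough reads to be tested. The comparison covers every gene with enough reads, while the genes and lists described were chosen with results of these data known.

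The cells were splenocytes of mice with a GFP reporter for KLF2 and an RFP reporter for FOXP3. All were CD4 T cells without the FOXP3 reporter signal and with high surface CD44, a mark of earlier activation, and were sorted as either KLF2+ or KLF2-. Each population spent 48 h with 2.5 micrograms/mL anti-CD3 plus 1.25 micrograms/mL anti-CD28 or with no stimulation, with 2 libraries in each of the 4 groups. KLF2- is defined by absence of the reporter signal, not by a deletion of the gene. The strain, sex and age of the mice, and whether the replicates were separate animals or cultures, are not stated in the labels. The p-values therefore reflect only how far the 2 libraries of a group lay apart, which can be technical spread.

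KLF2 is a zinc finger transcription factor of resting T cells. It drives genes for exit from lymphoid tissue, such as the sphingosine-1-phosphate receptor gene S1pr1, and restrains cell cycle entry, and its transcript is known to be lost after T cell receptor signalling. Anti-CD3 engages the T cell receptor complex and anti-CD28 a costimulatory receptor, and together they set off immediate transcription factors, growth in mass, division and the secretion of cytokines.

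The libraries differed in how much of their reads fell in exons, and the difference moved with the groups. Exon reads numbered 8.27 M and 17.8 M in unstimulated KLF2+ libraries (replicates 1 and 2), 21.03 M and 36.6 M in stimulated KLF2+ libraries, 7.34 M and 8.62 M in unstimulated KLF2- libraries (replicates 3 and 4), and 4.53 M and 2.99 M in stimulated KLF2- libraries. Reads over 1471 olfactory and vomeronasal receptor genes, which T cells are not known to use, gave a background density per kb of exon. At that density background made up 0.402% to 7.83% of exon reads in 6 libraries, 11.4% in stimulated KLF2- replicate 3 and 20.2% in stimulated KLF2- replicate 4, the library that stood apart. Many results are therefore also given with the background subtracted in proportion to exon length, or without a stimulated KLF2- replicate. The T cell markers of the sorted cells were present in every library, with Cd4 at 814 and 1046 CPM (counts scaled to library size with TMM factors) in unstimulated KLF2+ cells and at 479.7 and 475 CPM in stimulated KLF2- cells.

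In total 6855 genes (35.8% of those tested) had a difference in response at a Benjamini-Hochberg adjusted p under 0.05 in edgeR (quasi-likelihood). The difference was positive for 3890 genes (20.3%) and negative for 2965 (15.5%), and such genes are called positive or negative from here on. Over all tested genes the median difference was -0.09 on the log2 scale. After background correction 1789 of 15281 genes were called (11.7%), 586 positive (3.83%) and 1203 negative (7.87%), and 534 and 896 of these were also called in the same direction without it. Counts of list members below are to be set beside these shares. They are 20.3% positive and 15.5% negative as deposited, and 3.83% and 7.87% after correction. Without stimulated KLF2- replicate 4, 2512 genes were called (12.9%), 2160 positive (11.1%) and 352 negative (1.8%). With a replicate block 10857 genes were called (56.7%), 5037 positive (26.3%) and 5820 negative (30.4%). Leaving out other single libraries moved the count too, to 74 and 70 when unstimulated KLF2- replicate 3 or 4 was dropped, to 413 when unstimulated KLF2+ replicate 1 was and to 1806 when stimulated KLF2+ replicate 2 was. The 74 and 70 were all among the 6855, so most calls described here were lost in those fits. In all, 17 other settings were compared, 9 that use all 8 libraries and 8 that leave out a library each. Positive genes were 56.7% of the calls with the scaling used, 45.8% by DESeq2 and 45.3% with median-ratio factors, but 12.5% when scaling factors came from genes of at least 50 CPM, which moved the median of all genes to -1.04. They were 32.8% after background correction, 46.4% with a replicate block, and 14.5% and 13.4% by limma on log2 TPM with pseudocounts of 1 and 0.1.

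**Figure D1:**
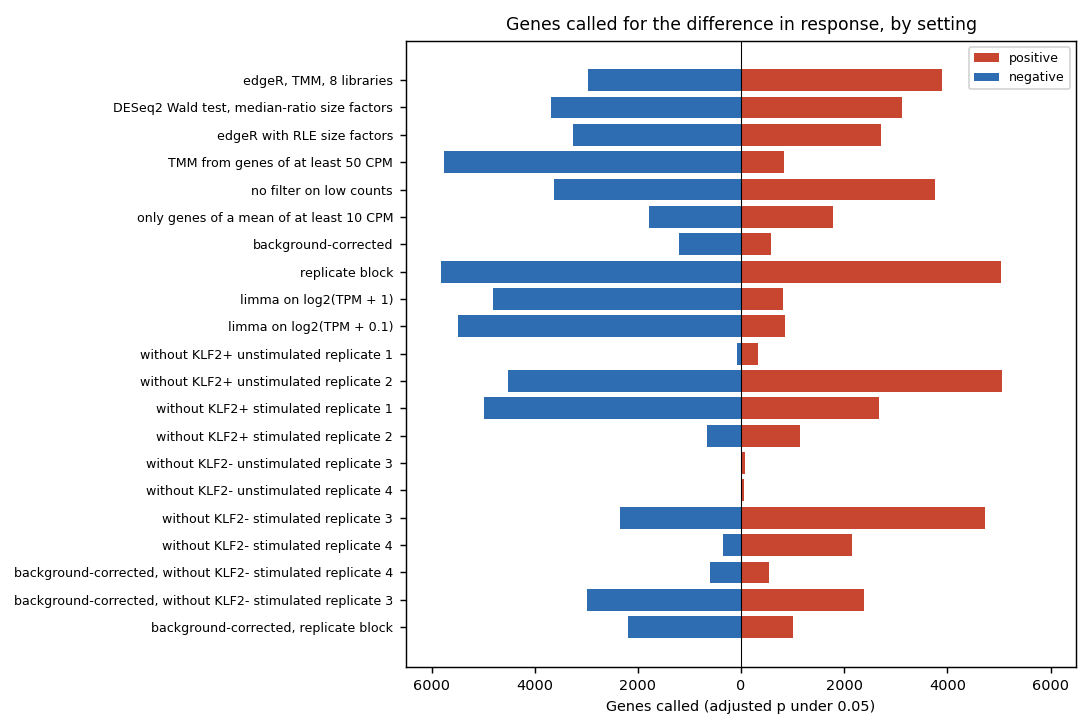
Number of genes called for the difference in response (horizontal axis, genes with an adjusted p under 0.05) under each setting (vertical axis), positive to the right and negative to the left. The count was 6855 with all 8 libraries, 1789 after background correction, and 74 and 70 when an unstimulated KLF2- library was left out.

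Most positive genes had fitted responses of opposite sign. Of the 3890, 3277 had a fold change above 0 in KLF2+ cells and below 0 in KLF2- cells, 600 were above 0 in both and 13 were below 0 in both. Of the 2965 negative genes, 2846 were below 0 in KLF2+ cells and above 0 in KLF2- cells. The sign in KLF2- cells rests on scaling. edgeR called 0 genes for the KLF2- response alone, with 2802 at an unadjusted p under 0.05, and after background correction 223 of the 586 positive genes had responses above 0 in both populations. Taken over the 4 stimulated-minus-unstimulated library pairs of each population, the responses did not overlap in 13266 genes (69.3%). KLF2+ was above in 6886 (36%) and below in 6380 (33.3%). Low genes made up much of the negative set, since 967 of the 2965 had a mean of at least 10 CPM against 3770 of the 3890 positive genes. For 539 positive genes (13.9%) both KLF2+ libraries lay below both KLF2- libraries without stimulus and above them with it, an order change found in 4.18% of all tested genes. The reverse order change, found in 1.62% of tested genes, occurred in 176 negative genes. Each order change fixes the sign of the difference, so a higher share among genes called in that direction is given by definition.

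**Figure D2:**
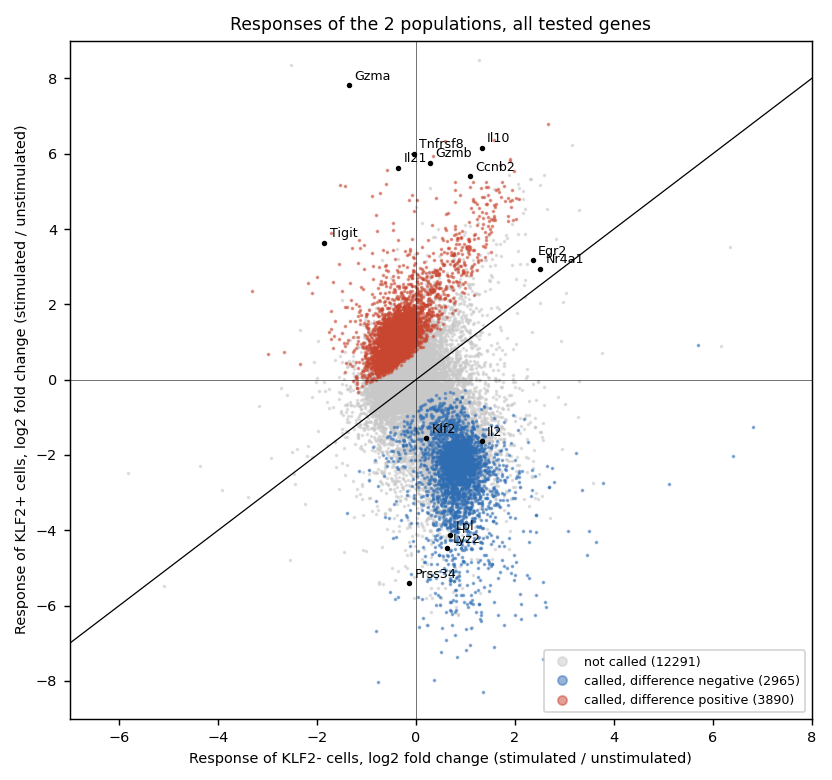
Fitted log2 fold change from unstimulated to stimulated cells in KLF2- cells (horizontal axis) and KLF2+ cells (vertical axis), 1 point per tested gene, with the line of equal responses. The 3890 positive genes lie above the line and the 2965 negative genes below it, while Nr4a1 and Egr2 lie in the quadrant of rising values for both populations.

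Among positive genes whose mean reached 10 CPM, the 10 largest differences were those of Gzma, Tnfrsf8, Il21, Ecm1, Tigit, Gzmb, Nfil3, Il12rb2, Il10 and Ifitm3, with histone, small RNA and unnamed gene models passed over. Most are cytotoxic, cytokine, receptor or transcription factor genes of activated T cells. Gzmb, the granzyme B gene of cytotoxic granules (mm10 chromosome 14, 56258836 to 56262334), measured 13.2 and 17.5 CPM in unstimulated and 782 and 887 in stimulated KLF2+ cells, and 11.6 and 9.34 in unstimulated and 14.8 and 10.5 in stimulated KLF2- cells. The stimulated KLF2+ libraries lay far above the other 6, which ranged over 9.34 to 17.5 CPM. In bulk libraries a change in the number of expressing cells and in the transcript per cell cannot be told apart. Its log2 difference in response was 5.48 ± 0.38 (SE, n = 2 libraries per group; edgeR adjusted p = 0.0012), and 4.75 after background correction. Values after ± below are SE of the log2 difference with the same n. Gzma, the granzyme A gene (mm10 chromosome 13, 113093824 to 113100981), measured 3.38 and 2.25 CPM in unstimulated and 586 and 659 in stimulated KLF2+ cells, and 29.2 and 16.04 in unstimulated and 16.3 and 0.436 in stimulated KLF2- cells. Without stimulus the KLF2+ libraries lay below the KLF2- libraries and with it far above them, and stimulated KLF2- replicate 4 was the lowest of all. Its difference was 9.18 ± 1.19 (edgeR adjusted p = 0.0067), 8.79 after background correction and 8.30 without that library. In stimulated KLF2- replicate 4 the count lay below its background, so the corrected value rests on replicate 3 in that group. Without replicate 3 no fold is given. That leaves in the group only the library at 0.436 CPM, which is under the floor of 3 counts. Among 16 tested cytotoxic genes 4 were positive (25%), a share near the 20.3% of all tested genes, and 1 was negative. After background correction 3 were positive and 0 negative. Srgn, the proteoglycan that packs granzymes in granules, was also positive (2.54 ± 0.45), as was the granzyme inhibitor gene Serpinb6b, named after its values were seen (1.28). The negative member, the granzyme gene Gzme, was at most 5.01 CPM in any library, was at the floor of 3 counts in stimulated KLF2+ cells and was not called after correction.

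**Figure D3:**
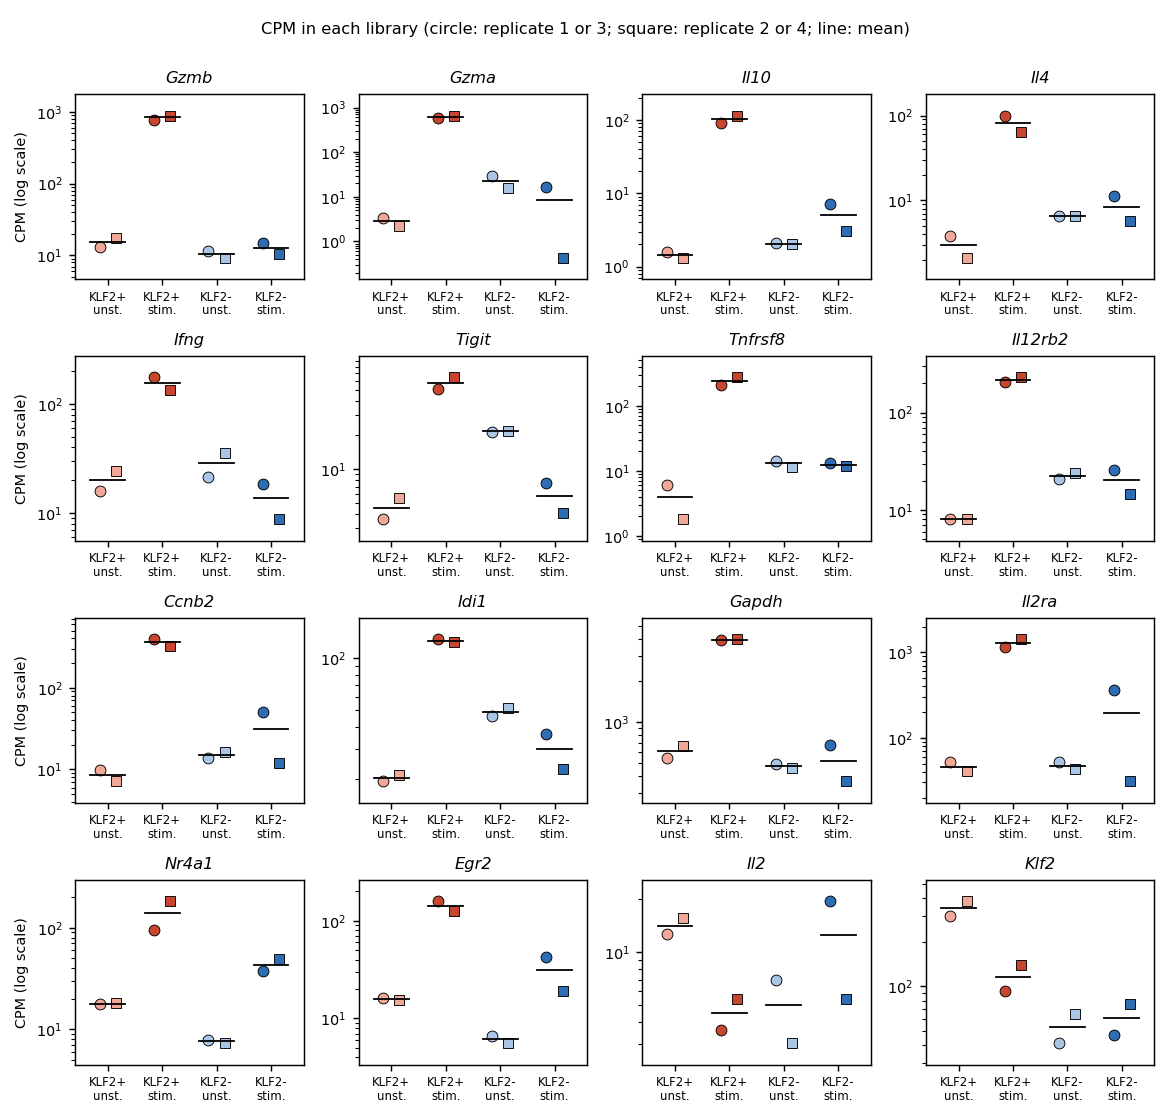
CPM (log scale) of 16 genes in each library, with circles for replicates 1 and 3, squares for replicates 2 and 4, and a line at the group mean. Stimulated KLF2+ libraries are highest for Gzmb, Il10, Il4, Ifng and Idi1, stimulated KLF2- libraries are split for Il2ra, and Nr4a1 and Egr2 are higher with stimulus in both populations.

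The window before the start of Gzmb is shown because this gene had the smallest p of the cytotoxic list. It is the 250 bases before the gene's start, read 5′ to 3′ on the gene's minus strand (RefSeq, GRCm38.p6, chr14:56262335-56262584). Capitals mark a match to TGANTCA, the AP-1 element, which is bound by FOS and JUN family factors and reads the same way on both strands. The match begins 58 bases before the start.

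Gzmb: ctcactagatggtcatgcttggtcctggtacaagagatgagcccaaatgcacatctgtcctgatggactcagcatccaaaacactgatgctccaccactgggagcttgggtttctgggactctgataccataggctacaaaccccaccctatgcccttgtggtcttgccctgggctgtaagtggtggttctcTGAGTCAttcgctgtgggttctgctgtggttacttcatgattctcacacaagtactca

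The same letters occurred in 6.87% of 27025 promoter windows, in 3.78% of the 3119 positive genes with a window and in 7.51% of the 2210 negative ones. They occurred in 1 of 17 windows of the cytotoxic list (5.88%), that of Gzmb, in 7 of 24 of the cytokine list (29.2%) and in 8 of 26 of the interferon-stimulated list (30.8%). A match describes the letters and is no measure of binding.

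Cytokine genes divided, with 8 of 27 tested positive (29.6%, against 20.3% of all tested genes), 1 negative and 18 not called. After background correction 4 of 24 were positive and 0 negative. Il10, the gene of an anti-inflammatory cytokine (mm10 chromosome 1, 131019845 to 131024970), measured 1.58 and 1.32 CPM in unstimulated and 91.99 and 115 in stimulated KLF2+ cells, and 2.09 and 2.03 in unstimulated and 7.09 and 3.05 in stimulated KLF2- cells. Both stimulated KLF2+ libraries lay far above the highest KLF2- library. The difference was 4.83 ± 0.55 (edgeR adjusted p = 0.0047) and 4.85 after background correction. Few reads were left by the correction in unstimulated KLF2+ replicate 1 and stimulated KLF2- replicate 4, so the corrected value is uncertain. Il21, the gene of a helper cytokine for B cells, measured 2.7 and 3.65 CPM in unstimulated and 148 and 173 in stimulated KLF2+ cells, and 1.98 and 3.45 in unstimulated and 2.8 and 1.31 in stimulated KLF2- cells. It differed by 6.00 ± 0.52 (edgeR adjusted p = 0.0022). After correction Il21 was not called (edgeR adjusted p = 0.077), and no corrected fold is given, since its stimulated KLF2- counts lay below the background. Ebi3, a subunit of IL-27 and IL-35, was called in all 17 other settings (3.34 ± 0.40).

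Genes of opposed helper classes were positive together. Ifng, the signature cytokine gene of Th1 cells, measured 15.9 and 24.2 CPM in unstimulated and 176 and 135 in stimulated KLF2+ cells, and 21.4 and 35.7 in unstimulated and 18.5 and 8.71 in stimulated KLF2- cells. Both stimulated KLF2- libraries lay below the unstimulated ones. Il4, that of Th2 cells, measured 3.83 and 2.12 CPM in unstimulated and 99.9 and 64.3 in stimulated KLF2+ cells, and 6.51 and 6.5 in unstimulated and 11.2 and 5.66 in stimulated KLF2- cells. Their differences were 4.00 ± 0.53 and 4.42 ± 0.57 (edgeR adjusted p = 0.0076 and 0.0067), and 3.33 and 3.67 after background correction. In Il4 the KLF2- conditions overlapped. Both genes were called under all 17 other settings. The Th1 list had 8 positive genes of 15 (53.3%, against 20.3% of all tested genes) and 0 negative. After correction it had 3 and 0, where 3.83% of all tested genes were positive. The IL-12 receptor gene Il12rb2 (4.90 ± 0.38) and the transcription factor gene Hlx (3.03 ± 0.71) were among the 8. The Th2 list had 7 positive (46.7%) and 0 negative of 15 (4 and 0 of 13 after correction), with the chemokine receptor gene Ccr8 (4.10 ± 0.52) and the zinc finger repressor gene Gfi1 (3.23 ± 0.39). The Th17 list had 3 positive of 16 (18.8%), a share near the 20.3% of all tested genes, and 1 positive and 1 negative of 15 after correction. The 3 were Il21, Batf and the factor gene Maf (1.43), and the list median went from 0.37 to -0.20 with correction. Il17a, the gene of IL-17A, was at most 4.10 CPM in any library and was not called (1.64 ± 1.97).

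Il2, the growth factor gene of newly activated T cells (mm10 chromosome 3, 37120716 to 37125954), went the other way. It measured 12.6 and 15.6 CPM in unstimulated and 3.62 and 5.41 in stimulated KLF2+ cells, and 6.97 and 3.04 in unstimulated and 19.4 and 5.45 in stimulated KLF2- cells. Without stimulus both KLF2+ libraries lay above both KLF2- libraries and with it below them, although stimulated KLF2+ replicate 2 and stimulated KLF2- replicate 4 were nearly level. The difference was -2.97 ± 0.87 (edgeR adjusted p = 0.032). It lost its call with the background subtracted (-3.88, edgeR adjusted p = 0.053), and without stimulated KLF2- replicate 3 (-1.71, edgeR adjusted p = 0.12). It was called in 10 of 16 other settings that gave a value.

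Of 27 cytokine receptor genes 6 were positive (22.2%), 2 negative (7.41%) and 19 not called, a positive share near the 20.3% of all tested genes. After correction 2 were positive and 4 negative, and the median moved from 0.22 to -0.46. Il12rb2 measured 7.99 and 8.15 CPM in unstimulated and 208 and 230.0 in stimulated KLF2+ cells, and 20.9 and 23.9 in unstimulated and 25.7 and 14.6 in stimulated KLF2- cells, so that its order between the populations changed with stimulus. Il12rb1 (3.02 ± 0.62), its partner chain, and Il21r (2.30 ± 0.33) were positive, while the survival cytokine receptor gene Il7r was negative (-1.61 ± 0.39). Among 14 chemokine genes Ccl4, a chemoattractant made by activated T cells, was positive (3.03 ± 0.52), and Ccl1 and Cxcl9 were negative, Cxcl9 by -1.47, while no fold is given for Ccl1, which was at the floor of 3 counts in unstimulated KLF2- cells. After correction 0 were positive and 1 was negative.

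Inhibitory and costimulatory receptors also held large positive differences. Tigit, an inhibitory receptor that competes with a costimulatory receptor for ligand (mm10 chromosome 16, 43648861 to 43664184), measured 3.6 and 5.57 CPM in unstimulated and 50.8 and 64.6 in stimulated KLF2+ cells, and 21.4 and 21.7 in unstimulated and 7.58 and 4.14 in stimulated KLF2- cells. Without stimulus both KLF2+ libraries were below both KLF2- libraries, and with it they were above. The difference was 5.49 ± 0.49 (edgeR adjusted p = 0.0023), and 5.22 after background correction. Of 20 genes listed with inhibitory receptors, the ligand gene Pdcd1lg2 included, 10 were positive (50%, against 20.3% of all tested genes), 1 was negative and 9 were not called. After background correction the counts were 5 and 2, and the median went from 0.90 to 0.33, and to -0.05 with factors from genes of 50 CPM or more. Ctla4, the receptor that captures CD80 and CD86, differed by 3.46 ± 0.47, the ligand gene Pdcd1lg2 by 2.46 ± 0.37 and the HMG-box factor gene Tox2 by 3.66 ± 0.31. Tox2 measured 6.75 and 8.75 CPM in unstimulated and 61.02 and 68.2 in stimulated KLF2+ cells, and 103 and 88.1 in unstimulated and 68.9 and 56.2 in stimulated KLF2- cells, so KLF2+ cells started well below KLF2- cells and overlapped with them under stimulus. The negative gene, named after its values were seen, was Cd244a (-1.96).

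Tnfrsf8, which encodes CD30 of the TNF receptor family (mm10 chromosome 4, 145267132 to 145315164), measured 6.08 and 1.79 CPM in unstimulated and 206 and 273 in stimulated KLF2+ cells, and 14.4 and 11.6 in unstimulated and 13.02 and 11.98 in stimulated KLF2- cells, with the KLF2- libraries within a narrow range. Its difference was 6.05 ± 0.61 (edgeR adjusted p = 0.0026), and 7.03 after background correction. Of 19 genes of costimulatory TNF receptors and ligands 7 were positive and 0 negative (3 and 1 after correction, median 0.93 and then 0.20, and -0.05 with factors from genes of 50 CPM or more). Tnfrsf9, the 4-1BB gene, differed by 3.65 ± 0.36, the OX40 gene Tnfrsf4 by 3.07 ± 0.62 and the GITR gene Tnfrsf18 by 2.25 ± 0.57, of which Tnfrsf18 was not called after correction (edgeR adjusted p = 0.063). Several of these genes also belong to the Treg identity list, where 7 of 16 were positive and 2 negative (4 and 2 after correction). The negative members, named after their values were seen, were Ikzf2 (-1.91), which encodes Helios, and Nrp1 (-1.62). Foxp3, the factor sorted against, was at 16.7 and 14.2 CPM in unstimulated and 20.4 and 21.3 in stimulated KLF2+ cells, and 12.7 and 11.98 in unstimulated and 8.57 and 5.23 in stimulated KLF2- cells and was not called (1.26 ± 0.47, edgeR adjusted p = 0.059), but was called without stimulated KLF2- replicate 3 (1.73, edgeR adjusted p = 0.028). Of 16 follicular helper genes 10 were positive and 0 negative (3 and 0 after correction), among them Pou2af1 (3.00 ± 0.40), an octamer coactivator, and the inhibitory receptor gene Pdcd1 (1.87 ± 0.28).

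Ecm1 and Ifitm3 belong to none of the receptor or cytokine lists. Ecm1, an extracellular matrix protein gene also known from Th2 cells, measured 25.2 and 29.6 CPM in unstimulated and 934 and 1089 in stimulated KLF2+ cells, and 293 and 193 in unstimulated and 233 and 84.95 in stimulated KLF2- cells, and differed by 5.81 ± 0.62 (edgeR adjusted p = 0.0032). Its order between the populations reversed with stimulus. Ifitm3, an antiviral membrane protein gene, measured 10.4 and 11.3 CPM in unstimulated and 122 and 122 in stimulated KLF2+ cells, and 3.49 and 2.64 in unstimulated and 1.81 and 0.871 in stimulated KLF2- cells, and differed by 4.62 ± 0.43 (edgeR adjusted p = 0.0023). Both kept an edgeR, limma or DESeq2 call of the same sign under the 17 other settings.

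Transcription factor genes known to be set off by T cell receptor signals were positive in 12 of 24 (50%, against 20.3% of all tested genes) and negative in 0. Their median was 1.92 (9 and 0 of 23 called, median 1.33, after correction). Nfil3, a basic leucine zipper repressor (mm10 chromosome 13, 52967209 to 52981039), measured 15.3 and 24.1 CPM in unstimulated and 401 and 427 in stimulated KLF2+ cells, and 94.8 and 98.2 in unstimulated and 79.5 and 29.6 in stimulated KLF2- cells. It was lowest in unstimulated KLF2+ cells and highest in stimulated KLF2+ cells, and KLF2- libraries lay between. The difference was 5.20 ± 0.57 (edgeR adjusted p = 0.0041). Batf and Batf3, AP-1 family partners of IRF4, differed by 2.75 ± 0.34 and 3.28 ± 0.42, and Bhlhe40, a regulator of cytokine production, by 2.53 ± 0.36. The median response of the list was 1.81 and 1.93 log2 units in stimulated KLF2+ replicates 1 and 2, each against the mean of its unstimulated group, and 0.05 and -0.46 in stimulated KLF2- replicates 3 and 4.

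Some immediate genes were not called. Nr4a1, the orphan nuclear receptor whose transcript is a common reporter of receptor signal strength, measured 17.8 and 18.2 CPM in unstimulated and 94.2 and 182 in stimulated KLF2+ cells, and 7.9 and 7.31 in unstimulated and 37.3 and 49.7 in stimulated KLF2- cells. Every stimulated library exceeded every unstimulated library of its population by at least 1 log2 unit. The difference was 0.43 ± 0.44 (95% interval -0.54 to 1.41, edgeR adjusted p = 0.42), and it went to -0.83 after background correction and to -0.53 with factors from genes of 50 CPM or more. Egr2, a zinc finger factor induced by the same signals, measured 16.1 and 15.5 CPM in unstimulated and 158 and 127 in stimulated KLF2+ cells, and 6.62 and 5.58 in unstimulated and 42.9 and 19.2 in stimulated KLF2- cells, and its difference of 0.82 ± 0.47 was not called (95% interval -0.24 to 1.88, edgeR adjusted p = 0.18). In all, 17 genes were higher by at least 1 log2 unit in every stimulated library of both populations, of which 6 were called positive and 11 were not called. These 17 were found after the values were seen. Among them were the enkephalin precursor gene Penk (0.99), not called, and the mitotic genes Spc24 (3.11) and Hmmr (2.29), called positive, as was the inhibitory receptor gene Lag3 (3.03).

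Feedback inhibitors of cytokine and kinase signalling were positive in 14 of 29 (48.3%, against 20.3% of all tested genes) and negative in 1. After correction 3 were positive and 0 negative, and the median moved from 1.00 to 0.13. Socs3, a suppressor of cytokine signalling, measured 108 and 107 CPM in unstimulated and 394 and 406 in stimulated KLF2+ cells, and 67.98 and 86.9 in unstimulated and 43.2 and 19.2 in stimulated KLF2- cells. Stimulated KLF2- replicate 4 was the lowest library. The difference was 3.20 ± 0.46 (edgeR adjusted p = 0.0094). Socs2 differed by 3.31 ± 0.46, and the MAP kinase phosphatase genes Dusp5 and Dusp6 by 2.85 ± 0.49 and 2.52 ± 0.47. The negative gene was the ERK pathway inhibitor gene Spry2 (-2.72), named after its values were seen. In the network of MYC partners 4 of 11 genes were positive (36.4%) and 1 negative (2 and 1 after correction). The positive ones were Mxd1 (2.33 ± 0.29), Mxd3 (2.53 ± 0.34), Mxd4 (1.48 ± 0.42) and Mxi1 (1.03), the last named after its values were seen. The negative one was Mga (-1.17 ± 0.33). Myc itself measured 115 and 112 CPM in unstimulated and 402 and 430.0 in stimulated KLF2+ cells, and 69.8 and 48.9 in unstimulated and 89.02 and 11.8 in stimulated KLF2- cells. The difference of 2.10 ± 0.88 was not called (edgeR adjusted p = 0.082), but was called without stimulated KLF2- replicate 4 (1.30, edgeR adjusted p = 0.035) and without replicate 3 (4.26, edgeR adjusted p = 0.00032). After background correction it was 1.33 and not called (edgeR adjusted p = 0.36).

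Genes of cell division had more upward responses in KLF2+ cells than in KLF2- cells, and the stimulated KLF2- libraries differed from each other. Of 35 mitosis genes 34 were positive and 0 negative, with a median of 2.77, and the remaining gene was Mki67. The 34 positive values ran from 1.97 to 4.31. The median response was 4.42 and 4.18 log2 units in stimulated KLF2+ replicates 1 and 2, and 1.99 and 0.04 in stimulated KLF2- replicates 3 and 4. Summed over the list, the level was 625 and 575 CPM in unstimulated and 11329.9 and 9798 in stimulated KLF2+ cells, and 646 and 628 in unstimulated and 2364 and 714 in stimulated KLF2- cells. After background correction 3 mitosis genes were called, all positive, although the median stayed at 2.20. Without stimulated KLF2- replicate 4, 31 were positive with a median of 2.27.

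Ccnb2, the cyclin B2 gene of mitotic entry (mm10 chromosome 9, 70407689 to 70421554), measured 9.91 and 7.16 CPM in unstimulated and 390.1 and 324 in stimulated KLF2+ cells, and 13.7 and 16.2 in unstimulated and 50.9 and 11.98 in stimulated KLF2- cells. Stimulated KLF2- replicate 3 was above both unstimulated KLF2- libraries and replicate 4 was below them. Its difference was 4.31 ± 0.72 (edgeR adjusted p = 0.012), and 3.65 without replicate 4. Birc5, the survivin gene, differed by 4.02 ± 0.60, the kinetochore motor gene Cenpe by 2.63 ± 0.44 and Ect2, the exchange factor of cytokinesis, by 2.44 ± 0.37. Top2a, the topoisomerase of chromosome separation, measured 47.2 and 36.8 CPM in unstimulated and 859.9 and 682 in stimulated KLF2+ cells, and 49.4 and 44.4 in unstimulated and 219 and 40.5 in stimulated KLF2- cells. It was called at 2.73 ± 0.81 (edgeR adjusted p = 0.032), but not once the background was subtracted (1.93, edgeR adjusted p = 0.16). Mki67, the proliferation marker, measured 24.1 and 16.2 CPM in unstimulated and 215 and 173 in stimulated KLF2+ cells, and 15.7 and 14.8 in unstimulated and 73.4 and 25.7 in stimulated KLF2- cells and was not called (1.57 ± 0.57, edgeR adjusted p = 0.056). Its value was 0.47 after background correction and 2.58, and called, without stimulated KLF2- replicate 3 (edgeR adjusted p = 0.0021).

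DNA replication and S phase genes followed, with 30 of 34 positive and 0 negative (5 and 0 after correction) and a median of 2.25. The 4 not called were Dnmt1, Rrm2, Pola1 and Mcm3, named after their values were seen, with values from 1.04 to 3.01. The median response was 2.78 and 2.76 in the stimulated KLF2+ libraries and 1.08 and -0.37 in stimulated KLF2- replicates 3 and 4. Uhrf1, which carries DNA methylation through replication, measured 33.8 and 27.8 CPM in unstimulated and 542 and 499 in stimulated KLF2+ cells, and 59.9 and 51.05 in unstimulated and 138 and 53.6 in stimulated KLF2- cells, and differed by 3.29 ± 0.52 (edgeR adjusted p = 0.011). Mcm10 of origin firing (2.69 ± 0.39) and the clamp loader gene Rfc3 (2.21 ± 0.38) were also positive. Among 20 genes of G1 cyclins, CDKs and their inhibitors 13 were positive and 1 negative, but edgeR called 0 after correction, with 8 at an unadjusted p under 0.05. They held both drivers and brakes, with the cyclin E2 gene Ccne2 (2.29 ± 0.54) beside the inhibitor genes Cdkn1a (2.82 ± 0.61) and Cdkn2c (2.60 ± 0.56) and the retinoblastoma gene Rb1 (1.17 ± 0.28). The negative gene was the cyclin D1 gene Ccnd1 (-2.45), named after its values were seen. Of 10 tested replication-dependent histone genes 4 were positive (1 of 8 after correction), with Hist1h4d at 5.85 and 3.51 CPM in unstimulated and 46.97 and 57.9 in stimulated KLF2+ cells, and 7.32 and 5.28 in unstimulated and 3.3 and 1.74 in stimulated KLF2- cells (4.79 ± 0.58). These genes are near-identical copies whose reads the counting could split, so their values are uncertain.

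**Figure D4:**
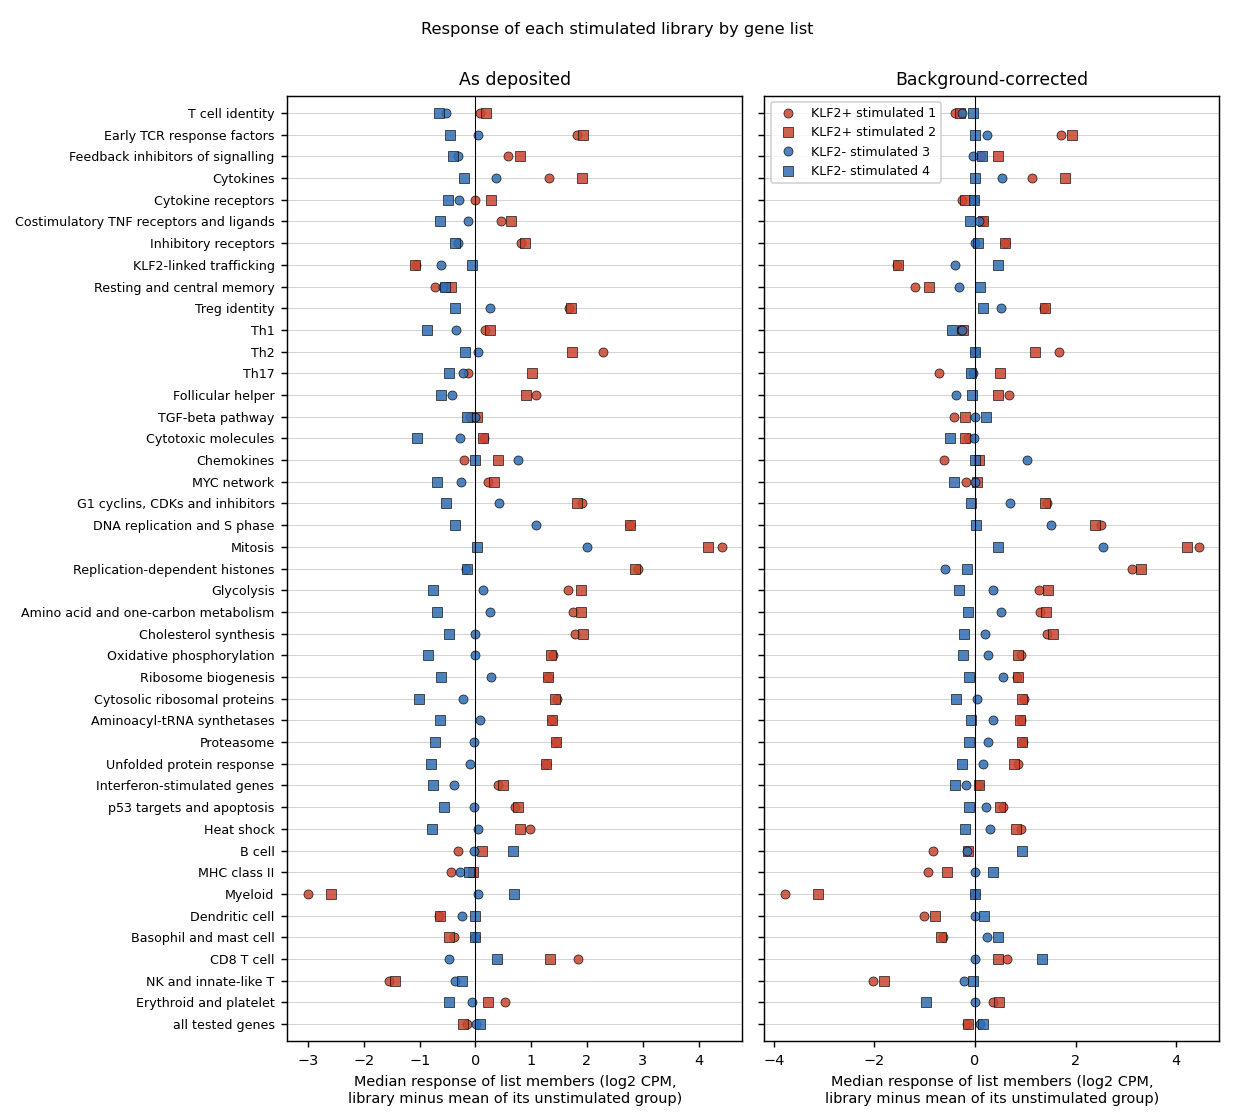
Median over the members of each gene list of the log2 CPM of a stimulated library minus the mean of its unstimulated group (horizontal axis), as deposited and background-corrected, with 1 symbol per stimulated library. Mitosis genes stand above 4 in both KLF2+ libraries, at 1.99 in KLF2- replicate 3 and at 0.04 in replicate 4, before correction.

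The windows of Ccnb2 and Ect2 are shown because mitosis genes moved together and both hold repeated matches to CCAAT, the letters bound by the factor NF-Y. Capitals mark CCAAT, or its reverse complement ATTGG. Each window is the 250 bases before the gene's start on its own strand, here minus for both (RefSeq, GRCm38.p6, chr9:70421555-70421804 and chr3:27153879-27154128).

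Ccnb2: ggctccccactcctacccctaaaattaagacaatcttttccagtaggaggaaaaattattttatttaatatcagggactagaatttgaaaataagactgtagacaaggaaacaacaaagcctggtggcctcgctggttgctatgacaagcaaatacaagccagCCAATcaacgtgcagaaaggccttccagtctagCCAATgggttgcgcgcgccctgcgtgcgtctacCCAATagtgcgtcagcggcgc
Ect2: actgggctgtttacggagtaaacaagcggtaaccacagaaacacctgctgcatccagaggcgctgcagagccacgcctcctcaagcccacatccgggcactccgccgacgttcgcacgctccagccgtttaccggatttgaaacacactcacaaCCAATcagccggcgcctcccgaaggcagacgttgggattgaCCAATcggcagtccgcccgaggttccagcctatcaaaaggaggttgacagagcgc

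In Ccnb2 the matches began 87, 54 and 21 bases before the start, and in Ect2 96 and 55 bases before it. CCAAT or ATTGG occurred in 34.5% of 27025 promoter windows, in 39.6% of 3119 positive and 33.3% of 2210 negative genes with a window. It occurred in 22 of 29 mitosis windows (75.9%), 18 of 28 S phase windows (64.3%) and 16 of 18 cholesterol synthesis windows (88.9%). Other lists held it as often, with 17 of 19 windows (89.5%) of the unfolded protein response list, while 4 of 19 glycolysis windows (21.1%) held it. The E2F letters TTTCCCGC, searched on both strands, occurred in 0.929% of all windows and in 3 of 28 S phase windows (10.7%). The lists were chosen with results in view, and no test was made of these shares.

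Cholesterol synthesis genes, which make the sterols of new membranes, were positive in 23 of 25 and negative in 0, with a median of 2.00. After background correction 13 were positive and 0 negative (median 1.58). Without stimulated KLF2- replicate 4, 20 were positive. The 2 not called, named after their values were seen, were the regulator gene Srebf2 (0.81) and Tm7sf2 (0.80). Idi1, the isomerase that makes the isoprenoid building block (mm10 chromosome 13, 8885606 to 8892396), measured 19.5 and 21.2 CPM in unstimulated and 128 and 123 in stimulated KLF2+ cells, and 46.2 and 51.4 in unstimulated and 36.6 and 23.1 in stimulated KLF2- cells. Unstimulated KLF2+ libraries were the lowest, stimulated KLF2+ libraries the highest, and both stimulated KLF2- libraries lay below the unstimulated ones. The difference was 3.33 ± 0.33 (edgeR adjusted p = 0.0024), 2.72 after background correction, and the call held in all 17 other settings. Fdps, farnesyl diphosphate synthase, differed by 2.87 ± 0.36, Lss, lanosterol synthase, by 2.46 ± 0.31 and the pathway's entry enzyme gene Hmgcs1 by 2.09 ± 0.28. The windows of Idi1, Lss and Hmgcs1 are shown for the same letters on the plus strand (RefSeq, GRCm38.p6, chr13:8885356-8885605, chr10:76531355-76531604 and chr13:119690101-119690350).

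Idi1: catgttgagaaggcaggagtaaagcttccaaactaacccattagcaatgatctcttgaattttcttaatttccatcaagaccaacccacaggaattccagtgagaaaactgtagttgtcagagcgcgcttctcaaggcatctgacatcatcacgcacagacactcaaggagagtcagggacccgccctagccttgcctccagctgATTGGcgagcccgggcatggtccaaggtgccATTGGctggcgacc
Lss: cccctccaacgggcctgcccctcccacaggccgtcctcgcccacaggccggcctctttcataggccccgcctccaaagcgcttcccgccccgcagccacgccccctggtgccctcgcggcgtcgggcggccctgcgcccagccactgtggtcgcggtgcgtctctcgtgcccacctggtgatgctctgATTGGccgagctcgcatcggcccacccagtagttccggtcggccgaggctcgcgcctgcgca
Hmgcs1: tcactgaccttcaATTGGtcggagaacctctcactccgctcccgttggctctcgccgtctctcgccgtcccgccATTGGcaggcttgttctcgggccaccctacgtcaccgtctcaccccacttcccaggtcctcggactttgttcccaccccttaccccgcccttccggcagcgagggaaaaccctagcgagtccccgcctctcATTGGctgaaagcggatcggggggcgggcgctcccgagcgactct

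The matches of Idi1 began 45 and 14 bases before the start, that of Lss 62 bases before it, and those of Hmgcs1 237, 176 and 45 bases before it.

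Energy metabolism genes were positive almost throughout their lists. Of 20 glycolysis genes 19 were positive and 0 negative (8 and 0 after correction), with a median of 2.07. The exception, named after its values were seen, was the pyruvate dehydrogenase kinase gene Pdk1 (0.57). Gapdh measured 548 and 665 CPM in unstimulated and 3927 and 3998 in stimulated KLF2+ cells, and 491 and 461 in unstimulated and 675 and 367 in stimulated KLF2- cells. KLF2+ libraries gained with stimulus, while stimulated KLF2- replicate 3 lay above its unstimulated group and replicate 4 below it. The difference was 2.58 ± 0.46 (edgeR adjusted p = 0.014). Tpi1 (3.41 ± 0.60), Pgk1 (2.65 ± 0.42) and Gpi1 (2.20 ± 0.34) of the same pathway were also positive. Of 32 oxidative phosphorylation genes 30 were positive and 0 negative (4 and 0 after correction), among them the ATP synthase subunit gene Atp5b (2.17 ± 0.47), the cytochrome oxidase gene Cox4i1 (2.00 ± 0.40), Sdhd (1.91 ± 0.39) and Uqcrc2 (1.65 ± 0.37), and the 2 not called, named after their values were seen, were Ndufa2 and Ndufs3. Of 25 amino acid and one-carbon genes 15 were positive and 1 negative (3 and 0 after correction), with the aspartate transaminase genes Got1 (2.30 ± 0.34) and Got2 (1.86 ± 0.30), the mitochondrial folate enzyme gene Mthfd2 (2.15 ± 0.35) and the polyamine enzyme gene Odc1 (2.30 ± 0.39). The negative gene was the cystine transporter gene Slc7a11 (-1.48), named after its values were seen.

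Genes that make and remove protein moved together as well. All 28 tested genes of cytosolic ribosomal proteins were positive, from 1.495 to 2.252 (22 after correction, 28 without stimulated KLF2- replicate 4). Their summed level was 8033 and 10799.9 CPM in unstimulated and 24688 and 23659.9 in stimulated KLF2+ cells, and 5274 and 5003 in unstimulated and 4303 and 2616 in stimulated KLF2- cells. Rpl10 differed by 2.12 ± 0.33, Rpl11 by 2.07 ± 0.34, Rpl3 by 2.02 ± 0.36 and Rpl18 by 1.81 ± 0.31. Ribosomal protein genes have many processed pseudogenes that can share their reads. All 20 aminoacyl-tRNA synthetase genes (5 after correction) and all 26 proteasome genes (11 after correction) were positive. Examples are Aars (1.86 ± 0.35), Cars (1.76 ± 0.31) and Hars (1.81 ± 0.34), which charge tRNA, and the proteasome subunit genes Psmb4 (2.29 ± 0.37), Psmb7 (1.99 ± 0.38) and Psmd1 (1.73 ± 0.29).

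Ribosome biogenesis genes were positive in 21 of 30 and negative in 0, but after correction edgeR called 0, with 8 at an unadjusted p under 0.05, and 13 were positive without stimulated KLF2- replicate 4. Noc4l differed by 1.80 ± 0.37, Ddx21 by 1.59 ± 0.36 and Bop1 by 1.57 ± 0.35, all of ribosome assembly. Of 23 unfolded protein response genes 17 were positive and 0 negative (6 and 0 after correction). Xbp1, the factor spliced under endoplasmic reticulum stress, measured 168 and 238 CPM in unstimulated and 697 and 648 in stimulated KLF2+ cells, and 183 and 193 in unstimulated and 162 and 85.6 in stimulated KLF2- cells, and differed by 2.33 ± 0.43 (edgeR adjusted p = 0.015). Creld2 (2.49 ± 0.37) and the protein disulfide isomerase gene Pdia6 (2.17 ± 0.37) were also positive. Heat shock genes were positive in 7 of 15 and negative in 1 (3 and 0 after correction), with the chaperone gene Hsp90aa1 at 2.48 ± 0.44. The negative gene, Hspb1, was at the floor of 3 counts in stimulated KLF2+ cells, so no fold is given, and it was named after its values were seen. Of 25 p53 target and apoptosis genes 13 were positive and 0 negative (2 and 1 after correction), and these included the BH3-only genes Bcl2l11 (1.97 ± 0.28) and Pmaip1 (1.91 ± 0.38). Of 35 interferon-stimulated genes 15 were positive and 1 negative (3 and 1 after correction, 8 and 0 without stimulated KLF2- replicate 4), with the GTPase genes Gbp2 (3.04 ± 0.45) and Gbp3 (1.71 ± 0.25). In Ifit3, the antiviral gene at 18.9 and 39.1 CPM in unstimulated and 38.7 and 38.6 in stimulated KLF2+ cells, and 12.8 and 12.8 in unstimulated and 2.97 and 1.96 in stimulated KLF2- cells, both stimulated KLF2- libraries lay below the unstimulated ones, and unstimulated KLF2+ replicate 1 was the only KLF2+ library below the others (2.76 ± 0.54). Ifit3 was also called after background correction, which left few reads in its stimulated KLF2- libraries, so no corrected fold is given.

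**Figure D5:**
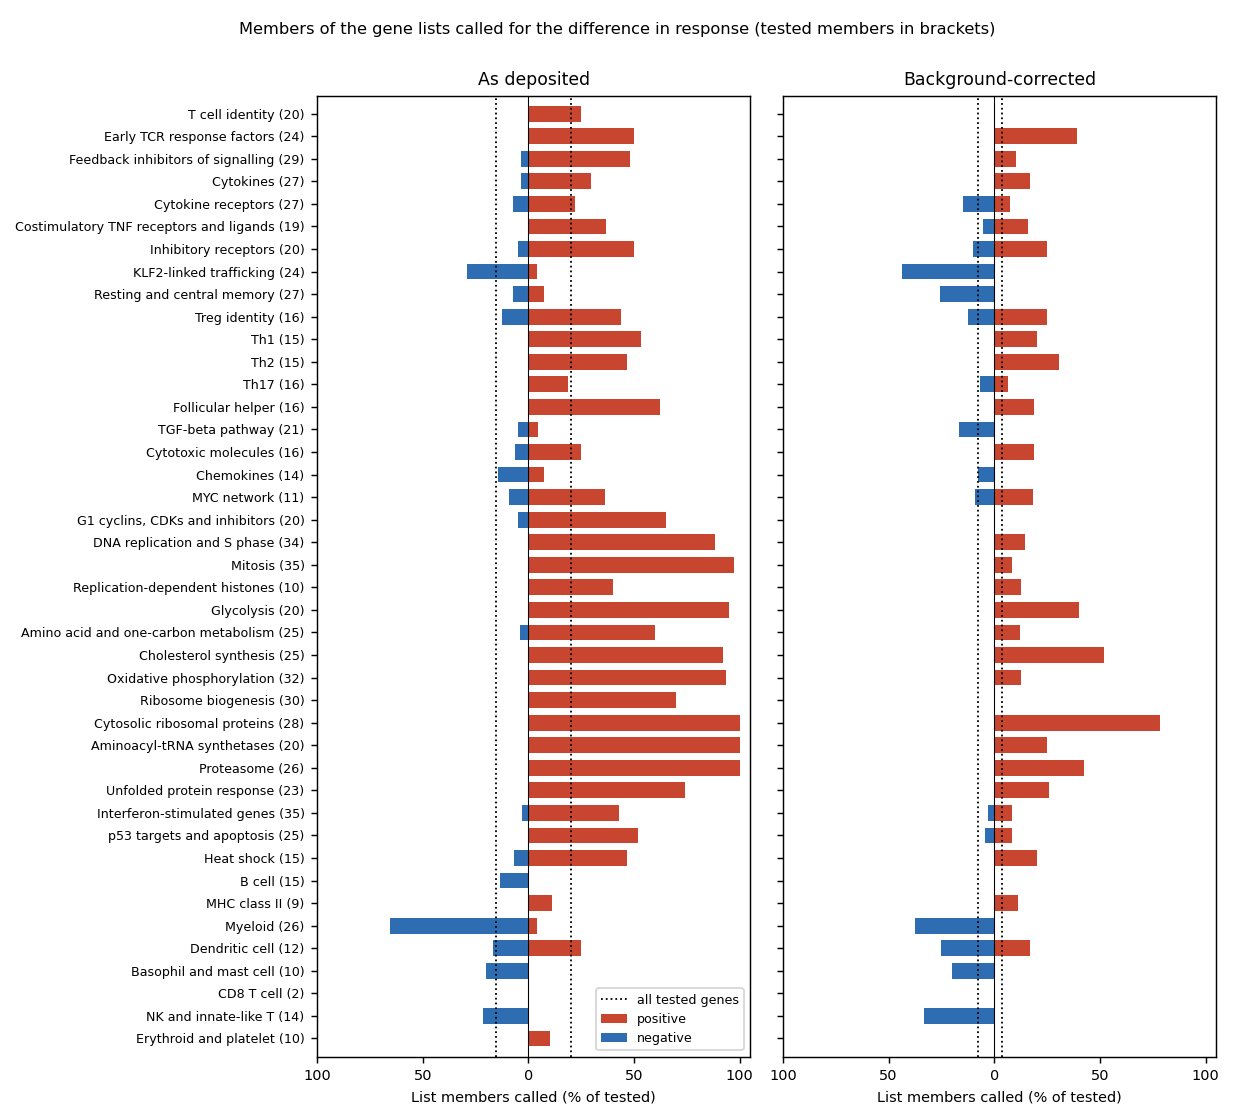
Share of the tested members of each gene list called for the difference in response (horizontal axis, percent, positive to the right and negative to the left), as deposited and background-corrected, with dotted lines at the shares over all tested genes. Biosynthesis and division lists exceed 20.3% positive before correction, and the myeloid list exceeds 15.5% negative.

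Trafficking genes linked to KLF2 leaned to the negative side. Of 24, 7 were negative (29.2%, against 15.5% of all tested genes), 1 was positive and 16 were not called, with a median of -0.76. After correction 10 of 23 were negative, against 7.87% of all tested genes, and 0 positive, with a median of -1.53. Without stimulated KLF2- replicate 4, 2 were negative and 1 positive. Klf2 itself (mm10 chromosome 8, 72319062 to 72321654) measured 303 and 379 CPM in unstimulated and 93.5 and 139 in stimulated KLF2+ cells, and 41.02 and 64.96 in unstimulated and 46.5 and 75.8 in stimulated KLF2- cells. Its unstimulated levels were set apart by the sort on the reporter. KLF2+ libraries were lower with stimulus but stayed above every KLF2- library, and KLF2- libraries overlapped between conditions. The difference was -1.75 ± 0.45 (edgeR adjusted p = 0.024), -2.74 after background correction, and it was not called without stimulated KLF2- replicate 4 (-1.35, edgeR adjusted p = 0.065). S1pr1, the receptor for exit into blood and lymph, measured 1103 and 1691 CPM in unstimulated and 312 and 466 in stimulated KLF2+ cells, and 252 and 326 in unstimulated and 128 and 366 in stimulated KLF2- cells. The stimulated KLF2- libraries lay on either side of their unstimulated group, and the difference of -1.61 ± 0.63 was not called (edgeR adjusted p = 0.068). It was -0.66 without stimulated KLF2- replicate 4, and -2.13 and called without replicate 3 (edgeR adjusted p = 0.0092). After background correction it was -2.64 (edgeR adjusted p = 0.056), and it was called in 8 of 17 other settings, DESeq2 (adjusted p = 0.013) and the replicate block (edgeR adjusted p = 0.0034) included. Cd55, a complement regulator (-2.33 ± 0.58), Rasgrp2, an activator of the integrin switch RAP1 (-1.86 ± 0.42), and the integrin gene Itga4 (-1.48 ± 0.36) were negative. The positive gene was the chemokine receptor gene Cxcr4 (1.62 ± 0.37), which measured 17 and 17.5 CPM in unstimulated and 16.3 and 22.9 in stimulated KLF2+ cells, and 49.5 and 50.95 in unstimulated and 15.7 and 21.8 in stimulated KLF2- cells. In it the KLF2- libraries were lower with stimulus and the KLF2+ libraries overlapped, and after background correction edgeR gave an adjusted p of 0.18 and a difference of 0.91, which was not called.

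With the scaling used, resting and central memory genes had a median of 0.03, with 2 positive, 2 negative and 23 not called of 27. Both shares (7.41%) lay below the 20.3% and 15.5% of all tested genes. After correction 0 were positive and 7 negative (median -0.92). With factors from genes of 50 CPM or more the counts were 0 and 12 (median -0.91, against -1.04 over all tested genes). Il7r measured 1115 and 1428 CPM in unstimulated and 266 and 298 in stimulated KLF2+ cells, and 405 and 376 in unstimulated and 206 and 325 in stimulated KLF2- cells, and the antiproliferative gene Tob1 (-1.21 ± 0.37) was also negative, while Gimap7, a lymphocyte GTPase gene (1.83 ± 0.43), and Tob2 (1.39 ± 0.36) were positive. T cell identity genes were positive in 5 of 20 (25%) and negative in 0, a positive share near the 20.3% of all tested genes, with Cd2 (1.72 ± 0.46), Cd247 (1.36 ± 0.36) and Cd28 (1.18 ± 0.32) among them. Without stimulated KLF2- replicate 4, 2 were positive. After correction edgeR called 0 of the 20, with 6 at an unadjusted p under 0.05, and the median went from 0.71 to -0.24, and to -0.21 with factors from genes of 50 CPM or more. Of 21 TGF-beta pathway genes 1 was positive (4.76%), the latent TGF-beta receptor gene Lrrc32 (3.09 ± 0.73), and 1 negative (4.76%), Tgfb2 (-2.75 ± 0.59). Both shares lay below those of all tested genes, 20.3% and 15.5%. After correction the counts were 0 and 3 of 18, and the median of 0.22 became -0.42.

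The negative genes with the largest values included markers of cells that the sort should lack, and genes that were highest in stimulated KLF2- replicate 4. Lyz2, the lysozyme of macrophages and neutrophils (mm10 chromosome 10, 117277541 to 117282272), measured 705 and 1376 CPM in unstimulated and 32.7 and 60.4 in stimulated KLF2+ cells, and 3.25 and 3.45 in unstimulated and 2.31 and 8.49 in stimulated KLF2- cells. Its level was high only in KLF2+ libraries and highest in the unstimulated ones. The difference was -5.11 ± 0.79 (edgeR adjusted p = 0.010), -6.02 after background correction, and -3.93 without stimulated KLF2- replicate 4 (edgeR adjusted p = 0.040). Lpl, lipoprotein lipase (mm10 chromosome 8, 68880555 to 68906932), measured 141 and 233 CPM in unstimulated and 9.29 and 12.04 in stimulated KLF2+ cells, and 9.53 and 7.61 in unstimulated and 10.9 and 16.99 in stimulated KLF2- cells, with a difference of -4.82 ± 0.45 (edgeR adjusted p = 0.0023). Prss34, a mast cell and basophil protease gene (mm10 chromosome 17, 25298394 to 25300161), measured 36.4 and 31.5 CPM in unstimulated and 0.906 and 0.698 in stimulated KLF2+ cells, and 9.64 and 23.1 in unstimulated and 14.5 and 15.5 in stimulated KLF2- cells, with a difference of -5.27 ± 0.62 (edgeR adjusted p = 0.0056). Lpl and Prss34 were called in all 17 other settings.

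Of 26 myeloid markers 17 were negative, 1 was positive and 8 were not called (9 negative of 24 after correction). Their summed level was 1251 and 2155 CPM in unstimulated KLF2+ libraries, 257 and 346 in stimulated KLF2+ libraries, 302 and 272 in unstimulated KLF2- libraries and 242 and 269.9 in stimulated KLF2- libraries. The macrophage receptor gene Csf1r differed by -4.42 ± 0.58 and Vcam1 by -4.17 ± 0.60, and the complement gene C1qa was at the floor of 3 counts in stimulated KLF2+ cells, so no fold is given for it. The positive marker, named after its values were seen, was the factor gene Cebpb (2.34). Clec4n, a lectin gene of myeloid cells, measured 63.1 and 106 CPM in unstimulated and 9.89 and 14.7 in stimulated KLF2+ cells, and 0 and 0 in unstimulated and 0.33 and 0.436 in stimulated KLF2- cells. Both KLF2- groups were at or under the floor, so its KLF2- response and the difference cannot be given as a fold. Among other markers, 2 of 10 for basophils and mast cells, 3 of 14 for NK and innate-like T cells, 2 of 15 for B cells and 2 of 12 for dendritic cells were negative. These shares ran from 13.3% to 21.4%, around the 15.5% of all tested genes. These counts were 2, 4, 0 and 3 after background correction, and 1, 2, 0 and 0 without stimulated KLF2- replicate 4. Of 9 MHC class II genes 1 was positive, H2-DMa (2.19 ± 0.44). The dendritic cell list held 3 positive genes, Batf3, Irf8 and Bst2, the last named after its values were seen, which activated T cells also express. The summed basophil and mast cell level was 120.2 and 98.1 CPM in unstimulated and 56.4 and 57.9 in stimulated KLF2+ libraries, and 242 and 210.0 in unstimulated and 219 and 221 in stimulated KLF2- libraries. For NK and innate-like T markers it was 243 and 341, 100.3 and 115, 393 and 290.3 and 266 and 271 CPM in the same order, and for B cell markers 195 and 310.3, 202 and 290.0, 133 and 165 and 121 and 217. edgeR called 0 of 2 CD8 markers, with 1 at an unadjusted p under 0.05 and Cd8b1 at 0.59 ± 0.49, and 1 of 10 erythroid and platelet markers was positive, Klf1, which was at most 4.23 CPM. Among defining markers C1qb was at the floor in both stimulated groups, and S100a8 and Mcpt8 in stimulated KLF2- cells. The part of these cells in the negative differences was not tested.

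A further 6 genes among the 10 most negative of at least 10 CPM were Shisal1, Slc7a14, Scn4b, Muc5b, Adcy1 and Lrrc8e. The background share of libraries is given beside the level of Shisal1. Shisal1 measured 23.4 and 2.58 CPM in unstimulated and 0.453 and 0.305 in stimulated KLF2+ cells, and 27.4 and 27.8 in unstimulated and 36.3 and 52.7 in stimulated KLF2- cells. Unstimulated KLF2+ replicate 1, with 7.08% background, lay close to the unstimulated KLF2- libraries, with 7.83% and 7.12%, although for Lrrc8e it was lower than they were, at 6.08 against 16.5 and 18.5 CPM. Replicate 2, with 2.62%, was far lower, and stimulated KLF2- replicate 4, with 20.2%, was the highest. In each of the 6 genes stimulated KLF2- replicate 4 was the highest library and stimulated KLF2+ replicate 2, with 0.402% background, the lowest. After background correction the fitted differences of 5, Shisal1, Slc7a14, Scn4b, Adcy1 and Lrrc8e, stayed negative but were not called by edgeR (adjusted p from 0.065 to 0.089). The correction leaves no reads where a count is at or below its background, so no corrected folds are given. Muc5b left too few reads to be tested there. The part of background reads in these differences was not tested.

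Several genes tied to activation were not called. Il2ra, the high-affinity IL-2 receptor chain, measured 51.7 and 40.4 CPM in unstimulated and 1154 and 1425 in stimulated KLF2+ cells, and 51.5 and 43.03 in unstimulated and 361 and 30.9 in stimulated KLF2- cells. Replicate 3 was above every unstimulated library and replicate 4 was below them all. The difference was 2.75 ± 1.09 (95% interval 0.32 to 5.19, edgeR adjusted p = 0.069). Without replicate 4 it was 1.89 and called (edgeR adjusted p = 0.018), without replicate 3 it was 5.48 and called (edgeR adjusted p = 0.00019), and after background correction it was 1.94 and not called (edgeR adjusted p = 0.27). Cd69, an early activation marker at 21.3 and 21.8 CPM in the stimulated KLF2- libraries, differed by 0.71 ± 0.41 (95% interval -0.22 to 1.64, edgeR adjusted p = 0.18), Cd44 by -0.07 ± 0.31 (-0.77 to 0.63, edgeR adjusted p = 0.86), Cd4 by 0.27 ± 0.33 (-0.47 to 1.01, edgeR adjusted p = 0.51) and the TGF-beta 1 gene Tgfb1 by 0.86 ± 0.53 (-0.33 to 2.05, edgeR adjusted p = 0.20). The directions of Cd4, Cd69 and Tgfb1 flipped with factors from genes of 50 CPM or more, and that of Cd44 when single libraries were left out. With those factors Cd4 was -0.66 and Cd44 was -1.02, both called (edgeR adjusted p = 0.041 and 0.032), and after background correction Cd44 was -0.99 and not called (edgeR adjusted p = 0.078).

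A small set was called whichever setting was used. Of the 6855 genes, 47 positive and 5 negative ones were called in the same direction in all 17 other settings. Besides the genes already named as such, the 47 included the plasma cell and effector factor gene Prdm1 (2.73), the NF-kappa-B coregulator gene Bcl3 (3.09), the fatty acid desaturase gene Scd2 (3.82), the steroid enzyme gene Cyp11a1 (3.80) and the glutaredoxin gene Glrx (3.11). Prdm1 measured 29.6 and 28.6 CPM in unstimulated and 158 and 165 in stimulated KLF2+ cells, and 33 and 34.3 in unstimulated and 32.97 and 23.1 in stimulated KLF2- cells, and Cyp11a1 measured 3.27 and 3.65 CPM in unstimulated and 59.7 and 60.7 in stimulated KLF2+ cells, and 4.65 and 3.45 in unstimulated and 4.45 and 5.66 in stimulated KLF2- cells. In both, the stimulated KLF2+ libraries were the highest and the other 6 lay close together. The 5 negative genes were Lpl, Prss34, the complement receptor gene C5ar1 (-4.49), the scavenger receptor gene Msr1 (-3.83) and Nfam1 (-3.24). These genes were named after their values were seen, and all 5 are known from myeloid cells, mast cells or basophils.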

How the data were processed

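Per the labels' protocols, RNA from sorted splenic CD4 T cells was made into libraries with a stranded pico-input kit, and the labels name the molecule as polyA RNA. Per the submitters' processing notes, the tools were STAR 2.7.9, HOMER 4.11, SAMtools and DESeq2 with mm10. The authors deposited estimated counts of exon reads per gene, in steps of 0.5, and a table of TPM made, per the file headers, with HOMER. The strand setting of the counting is not stated in the labels or headers, so antisense and overlapping genes cannot be told apart.

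Here these counts were made whole by rounding, filtered with edgeR's filterByExpr and scaled with TMM factors. The difference in response was tested with edgeR 4.0.16 in R 4.3.3 (quasi-likelihood test, 1 mean per group, 4 residual degrees of freedom), with Benjamini-Hochberg adjustment over all 19146 tested genes. Alternatives were DESeq2 1.42.0, other factors and filters, a replicate block, limma 3.58.1 on log2(TPM + 1) and log2(TPM + 0.1), leaving out each library, and a background correction. That correction subtracted, per kb of exon, the read density over 1471 receptor genes of smell (1696.8 kb). A count smaller than its background was left with no reads. The fits were tested on simulated data. Libraries held 33.9 M to 45.6 M reads, of which 7.96% to 80.3% were exonic. No column belonged to other samples.

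The genes and 42 gene lists (816 genes, 791 tested) were chosen with earlier results of these data known. Named genes are the 10 largest and 10 smallest differences among called genes of at least 10 CPM, up to 4 called members of each list by p, and a fixed set that includes Klf2, Il2, Ifng and Mki67. Some genes that this rule names are not reported here. Promoter windows matched 14857 tested genes by symbol. A group at or under 3 counts per library was taken as at the floor, for counting error only.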

Additional observations from a re-analysis of the deposited data

Results flagged for a closer look

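Testing whether KLF2+ and KLF2- responses were equal picked out 6855 genes in edgeR, and among the genes named by rule in the 10 largest, the 10 smallest or the fixed set it picked out the following log2 differences. Positive values were 9.18 for Gzma, 6.05 for Tnfrsf8, 6.00 for Il21, 5.81 for Ecm1, 5.49 for Tigit and 5.48 for Gzmb. Nfil3 had 5.20, Il12rb2 4.90, Il10 4.83, Ifitm3 4.62, Il4 4.42, Ifng 4.00 and Top2a 2.73. Negative values of T cell genes were -2.97 for Il2 and -1.75 for Klf2. Among markers of myeloid cells, mast cells or basophils they were -5.27 for Prss34, -5.11 for Lyz2 and -4.82 for Lpl. Clec4n was fitted at -7.89, which is neither a fold nor a bound, since both KLF2- groups were at the floor. Another 6 genes, each highest in stimulated KLF2- replicate 4, had -5.77 (Shisal1), -5.36 (Slc7a14), -5.29 (Scn4b), -4.98 (Muc5b), -4.84 (Adcy1) and -4.73 (Lrrc8e).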

How the results depend on the processing

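Against 6855 calls, the fit of only genes of a mean of at least 10 CPM made 3579, of which 1789 positive and 1199 negative ones were also among the 6855, and the background-corrected fit made 1789, of which 534 and 896 were. Leaving out 1 library at a time gave 70 to 9581 calls, where the lone library of a group is assumed to vary like the others. Settings chosen after seeing the data, background correction without stimulated KLF2- replicate 4 and background correction with a replicate block, gave 1160 and 3206 calls, and correction without stimulated KLF2- replicate 3 gave 5366.

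The replicate block, which left 2 residual degrees of freedom, gave 10857 calls. The correlation of deviations between same-numbered samples was 0.54 in KLF2+ cells and 0.087 in KLF2- cells, and since the latter is below 0.1 the numbers were not taken to pair samples. Whether same-numbered samples share a source is not stated in the labels.

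Among the genes named by rule, directions reversed only in those not called with all 8 libraries and the deposited counts. Over all tested genes, 1 called gene was called in the opposite direction with background correction and the replicate block. Such a reversal also occurred with background correction without stimulated KLF2- replicate 4. Cd4 (0.27) was -0.66 with factors from genes of 50 CPM or more, -0.31 with only genes of a mean of at least 10 CPM, -0.68 background-corrected, -0.79 and -0.80 by limma with pseudocounts of 1 and 0.1, and, background-corrected, -0.54 without stimulated KLF2- replicate 4, -0.86 without replicate 3 and -0.68 with the block. In the same order of settings, Cd69 (0.71) was -0.21 with those factors, -0.13 corrected, -0.37 and -0.39 by limma, and -0.30 and -0.17 corrected without replicate 3 or with the block. Cd8b1 (0.59) was -0.38, -0.033 with the mean filter, -0.23 corrected, -0.41 and -0.42 by limma, and -0.77 and -0.12 corrected without replicate 3 or with the block. Nr4a1 (0.43) was -0.53, -0.17 with the mean filter, -0.83 corrected, -0.59 and -0.71 by limma, and -0.44, -1.18 and -0.86 corrected without replicate 4, without replicate 3 or with the block. Tgfb1 (0.86) was -0.046, -0.21 and -0.22 by limma, and -0.35 and -0.015 corrected without replicate 4 or with the block. Il17a (1.64) was -0.52 by limma with a pseudocount of 0.1, and Mki67 (1.57) was -0.34 corrected without replicate 4. Leaving out 1 library gave -0.24 to 0.13 for Cd44 (-0.07), -3.33 to 2.69 for Il17a and -0.12 to 0.84 for Nr4a1. The cause was not tested. Of the values recomputed for single genes, 2494 kept direction and call, 631 kept direction and lost the call, 37 gained it and 43 reversed. Depth limits stimulated KLF2- replicate 4 most, with 2.99 M exon reads.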
